A study of Rattus norvegicus with 49 samples.

Results

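Glutathione S-transferases join glutathione, the main small thiol of the hepatocyte, to reactive compounds so that the product can be exported and excreted. The cytosolic enzymes are dimers of subunits that fall into classes, of which alpha, mu and theta are prominent in adult rat liver. The pi class enzyme Gstp1 is scarce in normal rat hepatocytes and is widely used as a marker of altered hepatic foci. Furan is oxidised in the liver, mainly by Cyp2e1, to a reactive dialdehyde that binds glutathione and protein thiols.

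The enzymes described here are 9 genes, Gsta3, Gsta4, Gsta5, Gstm1, Gstm2, Gstm3, Gstm4, Gstp1 and Gstt1, out of 15154 gene symbols named on the array. They were chosen by symbol, through the RefSeq accession of each transcript probe, and each probe is given apart because probes of one gene can disagree. This gave 11 probes, 2 each for Gsta3 and Gstm4 and 1 for each other gene, and all 11 were tested. The name Gsta3 is that of the current RefSeq table, which lists Gsta5 and Yc2 as its older names, while the gene that was long called Gsta3 is now Gsta1 and is not among these genes. In the RefSeq table Gstm1, Gstm2, Gstm3 and Gstm4 are direct neighbours in the genome, as are Gsta4 and Gsta5. The files used here hold no probe sequences, so cross-hybridisation between these similar transcripts was not tested.

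Liver RNA came from F344 rats, which are an inbred strain, of both sexes and aged 7 to 8 weeks at the first dose. Controls received corn oil alone by gavage, and treated rats received furan at 2, 0.5, 0.12 or 0.03 mg/kg in the same oil, on 5 days of each week over 90 days. Sex and dose made 10 groups of 5 rats, except for 4 males at 0.03 mg/kg. Each array compared 1 rat's liver RNA, labelled with Cy5, with a universal rat reference RNA, labelled with Cy3, so the level of a probe is the log2 ratio of liver to reference.

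The array of male 26 at 0.03 mg/kg had only 5.06% of liver spots well above background, against 37.9% to 71.1% on the other 48 arrays, and it was left out of the values below, which leaves 3 males at that dose. The arrays lay on 8 slides. Slides 1 to 4 held 2 control arrays each, slides 7 and 8 held 1 each, and slides 5 and 6 held 0 control arrays. Of liver spots, 60.2% to 71.1% were well above background on slides 1 to 4. On slides 5 and 6 this share was 37.9% to 46.0%, and on slides 7 and 8 it was 45.5% to 69.6% without male 26. Slide quality and dose were thus partly tied. A difference is therefore given from limma with slide as a block, ± SE, with a Benjamini-Hochberg adjusted p over all 17661 probes tested. A probe was called where the adjusted p was at most 0.05 and the change at least 1.5-fold. Hepatocyte markers (6 of 6 probes, among them Alb) were well above background on all 48 arrays. Between the control sexes all 4 male-predominant liver genes were called higher in males and all 4 female-predominant genes lower.

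Of the 9 genes, 8 had promoters in the RefSeq table of the GRCr8 assembly, which gave 9 windows of 250 bases before a transcript start. The motif TGACNNNGC, the core of the antioxidant response element to which NRF2 binds, was searched on both strands. It was found in 2 of the 9 windows, 1 of Gsta3 and that of Gstp1, and in 10.1% of the 33469 promoters in the table. These windows belong to the 2 genes called in males at 2 mg/kg below and are shown for that reason, 5′ to 3′ on the strand of the gene, with the motif in capitals. The windows of Gstm1 and Gstm4, which were called with Gstp1 in females at 2 mg/kg, held 0 matches. The Gsta3 window is chr9:31154739-31154988 on the plus strand and the Gstp1 window is chr1:210769706-210769955 on the minus strand.
Gsta3: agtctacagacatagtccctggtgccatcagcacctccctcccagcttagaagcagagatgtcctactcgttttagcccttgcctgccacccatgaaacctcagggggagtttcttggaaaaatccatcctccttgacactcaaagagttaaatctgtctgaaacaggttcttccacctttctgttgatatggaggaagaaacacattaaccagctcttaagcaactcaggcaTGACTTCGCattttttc
Gstp1: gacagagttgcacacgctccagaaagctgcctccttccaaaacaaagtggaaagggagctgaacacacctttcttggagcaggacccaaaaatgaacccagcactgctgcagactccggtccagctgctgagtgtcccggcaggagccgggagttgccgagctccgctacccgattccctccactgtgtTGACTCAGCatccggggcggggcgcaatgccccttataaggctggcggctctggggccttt
The match lay 17 to 9 bases before the Gsta3 start and 61 to 53 bases before the Gstp1 start. In Gstp1 its letters also hold TGACTCA, the site of AP-1 factors. RefSeq lists another start of Gsta3 whose window held 0 matches, and which start the probed transcript uses is not given in the files. A match is a description of these letters and not a measured binding site.

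The first question was how these enzymes differ between the sexes without furan. In controls 5 of the 11 probes were called between males and females, 3 of them higher and 2 lower in males, while 6.42% of all probes were called. The alpha class gene Gsta3, whose product is known for acting on an aflatoxin epoxide, was lower in males by both probes, and the mu class genes Gstm1, Gstm2 and Gstm3, which act on a broad range of electrophiles, were higher. The median difference of the 11 probes was 0.17 on the log2 scale, beside 0.02 over all probes. In bulk liver, fewer cells of a type and less RNA per cell cannot be told apart.

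Probe A_64_P035291 of Gsta3 differed strongly between the control sexes. Its log2 ratios in control females were 3.91, 3.78, 3.62, 3.99 and 3.37. In control males they were 0.63, -0.52, -0.15, -0.49 and -0.38, the last of these not well above background. The groups lay far apart, with a log2 difference of -3.98 ± 0.29 (SE, n = 5 and 5), 15.8-fold lower in males (limma adjusted p = 2.88e-13). Within the 4 slides that held a control of each sex, males were lower in 4 of 4, by -2.73 to -4.51.

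Probe A_64_P004231, which carries the same accession, differed less. Control females had log2 ratios of 5.10, 4.58, 4.94, 5.00 and 4.76 and control males 3.72, 3.93, 4.06, 4.09 and 3.62, again without overlap. The log2 difference was -1.01 ± 0.10 (limma adjusted p = 1.10e-09), 2.01-fold lower in males.

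Gstm3 was the reverse case, near the background in females and high in most males. In control males its log2 ratios were 3.98, 3.72, 3.70, 4.05 and 1.08, where the low value is male 6. In control females they ran from 0.10 to 0.78, with a median of 0.21, and were well above background on 1 of 5 arrays. The log2 difference was 3.11 ± 0.42 (limma adjusted p = 5.35e-07), but with 1 of 5 female arrays above background its size is poorly measured, and over the other settings tried it ran from 2.12 to 5.80. Across all 5 female groups the liver signal of Gstm3 was well above background on 0 or 1 of 5 arrays each, so differences among female groups are poorly measured for this gene.

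Gstm1 and Gstm2 were 2.77-fold and 2.15-fold higher in control males. The Gstm1 log2 ratios were 4.47, 5.04, 4.29, 4.42 and 3.71 in males and 3.49, 3.74, 2.56, 3.09 and 2.47 in females, with 1 male below the highest female. The difference was 1.47 ± 0.18 (limma adjusted p = 1.21e-07). For Gstm2 it was 1.11 ± 0.14 (limma adjusted p = 2.09e-07), which without the slide block fell to 0.95 and was not called (limma adjusted p = 0.0885). Males were higher on 4 of 4 slides for both genes.

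The other 6 probes were not called between the control sexes. Gstm4 differed by 0.45 ± 0.12 for probe A_44_P728149 and by 0.45 ± 0.11 for probe A_64_P014727, and Gsta4, which acts on lipid peroxidation products such as 4-hydroxynonenal, by -0.43 ± 0.13. The limma adjusted p values of 0.0044, 0.00292 and 0.0153 met the threshold, but the folds of 1.37, 1.37 and 1.35 did not. Gsta4 was called under median centring alone, at -0.73. Gsta5, Gstp1 and Gstt1 differed by -0.05 ± 0.13, -0.09 ± 0.30 and 0.17 ± 0.08.

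**Figure D1:**
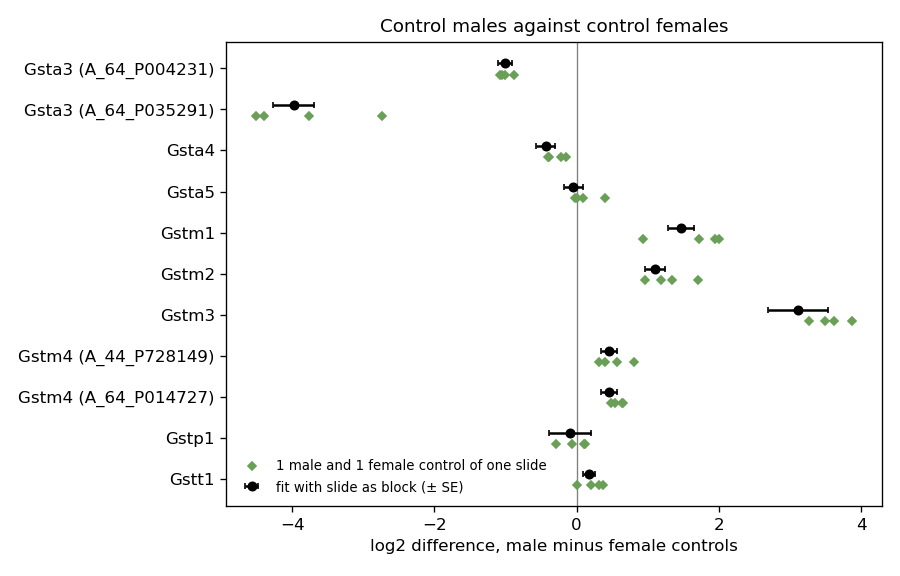
Log2 difference of control males minus control females for each of the 11 probes. Black points are the fit with slide as a block and bars are its SE, and green diamonds are the 4 slides with 1 control of each sex. Both Gsta3 probes lie below 0 and Gstm1, Gstm2 and Gstm3 above 0 on every such slide.

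The next question was at which dose furan changed these genes in males. At 2 mg/kg, 2 of the 11 probes were called, both higher, while 5.07% of all probes were called. They were Gsta3 probe A_64_P035291 and Gstp1. With the slide block the median difference of the 11 probes was 0.17, beside -0.02 over all probes. Without it each of the 11 differences was lower, and their median was that of Gstm3, -0.06, beside -0.04 over all probes. The differences of Gstm3 and Gsta3 probe A_64_P004231 changed sign, to -0.06 and -0.10, and both called probes were still called.

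The log2 ratios of Gsta3 probe A_64_P035291 in males at 2 mg/kg were 3.07, 2.69, 3.21, 2.48 and 3.12. All 5 lay above every control male, and all 5 lay below the lowest control female, at 3.37. The log2 difference from controls was 3.20 ± 0.30, a 9.17-fold rise (limma adjusted p = 1.95e-08). It was 1.85, 3.70 and 3.49 within the 3 slides that held both groups, and 3.01 to 3.53 with single arrays left out. The call was kept under all 12 other settings, with log2 differences of 3.09 to 3.94.

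The other probe of Gsta3, A_64_P004231, did not show this rise. Its log2 ratios in males at 2 mg/kg were 3.41, 3.68, 4.05, 4.16 and 3.60, within or close to the range of the controls. The log2 difference was 0.08 ± 0.10 (limma adjusted p = 0.642), and over the other settings it ran from -0.10 to 0.21. The probes thus shared the direction of the sex difference and parted at the top dose.

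**Figure D2:**
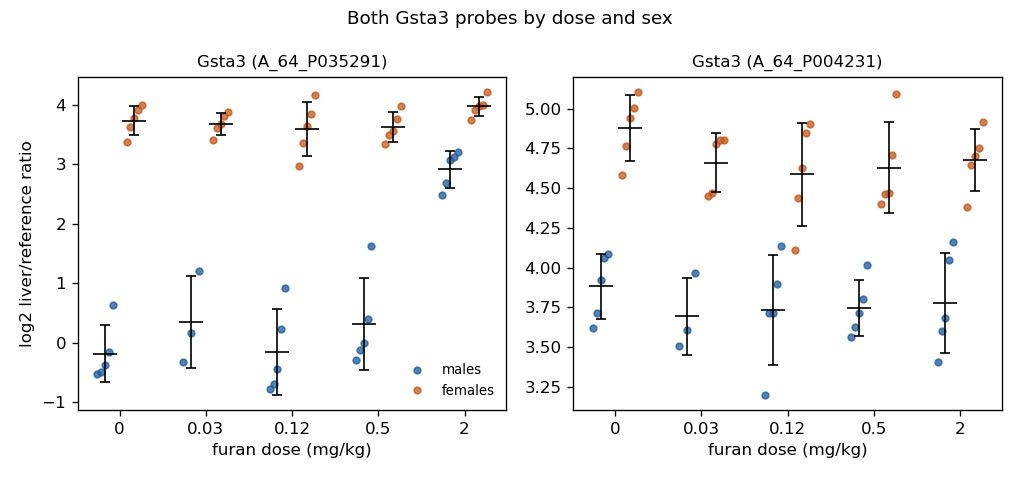
Log2 liver/reference ratio of each rat for the Gsta3 probes A_64_P035291 (left) and A_64_P004231 (right) against furan dose in mg/kg, without slide adjustment and on separate axes. Points are rats, horizontal marks are group means and bars are SD. On the left the males at 2 mg/kg, mean 2.91, stand far above the control males, mean -0.18, and below the females, and on the right the male means run from 3.69 to 3.88.

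Gstp1 had log2 ratios of -2.83, -2.68, -3.24, -2.71 and -3.20 in control males. At 2 mg/kg the values were -0.34, -0.39, 0.51, -2.25 and 1.01. All treated males lay above all controls, but male 86, at -2.25, stood well below the other 4. The log2 difference was 2.69 ± 0.30, a 6.44-fold rise (limma adjusted p = 2.77e-07), and it was 0.58, 3.23 and 4.21 within the 3 slides, of which the first holds male 86. It was 2.25 to 3.22 with single arrays left out and 2.47 to 2.75 under the 12 other settings, with the call kept in each. Male 86 also had the lowest Gsta3 value of its group by probe A_64_P035291, at 2.48.

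The 9 probes left were not called in males at 2 mg/kg. Gstm4 probe A_44_P728149 differed by 0.37 ± 0.12, which met the adjusted p threshold (limma, 0.0209) at 1.30-fold, and the other Gstm4 probe by 0.17 ± 0.11. Gstm2 differed by -0.38 ± 0.14 (limma adjusted p = 0.0518) and Gstm1 by 0.36 ± 0.19, which was called with the liver channel alone, at 0.73. Gstm3 varied widely among these males, with log2 ratios of 1.66, 2.93, 4.32, 3.19 and 4.11, and differed by 0.32 ± 0.43. Gsta4, Gsta5 and Gstt1 differed by -0.16 ± 0.14, -0.02 ± 0.14 and -0.01 ± 0.09.

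At the lower doses 0 of the 11 probes were called in males, with limma adjusted p values of at least 0.525. The shares of all probes called were 0.362%, 0.306% and 0% from 0.5 mg/kg down, and at each of these doses 0 of the 11 reached an unadjusted p of 0.05 or less. Over all 17661 probes 1983, 1154 and 728 had an unadjusted p under 0.05 at these doses, in the same order. The largest difference at 0.5 mg/kg was that of Gsta3 probe A_64_P035291, at 0.52 ± 0.30. This probe also led at 0.03 mg/kg, at 0.68 ± 0.36 with 3 males, and Gstm3 led at 0.12 mg/kg, at -0.60 ± 0.42. At 0.5 mg/kg the log2 ratios of Gsta3 probe A_64_P035291 were 0.39, -0.01, -0.13, -0.29 and 1.63, and those of Gstp1 were -2.67, -3.09, -2.90, -2.38 and -1.64. The highest value of both, male 70, was the same animal, which also had the highest Gstm3 value of any rat, at 4.99, without slide adjustment. It lay on slide 3, which had the highest slide effect for each of these probes. This effect was 0.42 for the Gsta3 probe, 0.49 for Gstp1 and 0.95 for Gstm3. Slide 3 held only 3 arrays, that of male 70 and 2 controls, so male 70 enters its own slide effect. Within slide 3, male 70 exceeded the control male by 2.15 for the Gsta3 probe, 1.04 for Gstp1 and 1.27 for Gstm3. After slide adjustment the highest Gstm3 value was 4.01 in males at 0.5 mg/kg and 4.54 in males at 2 mg/kg.

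**Figure D3:**
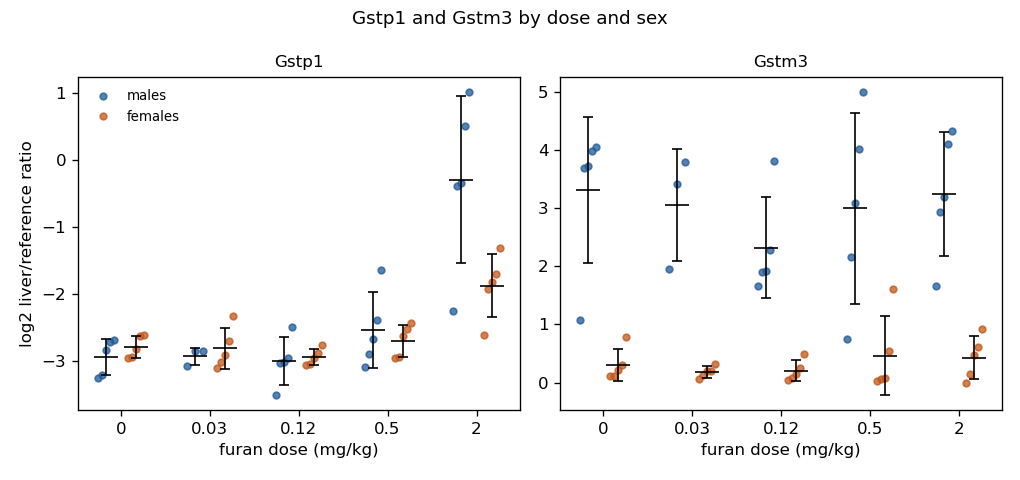
Log2 liver/reference ratio of each rat for Gstp1 (left) and Gstm3 (right) against furan dose in mg/kg, without slide adjustment. Points are rats, horizontal marks are group means and bars are SD. Gstp1 is higher at 2 mg/kg, with means of -0.29 in males and -1.87 in females, while for Gstm3 the male group means, 2.32 to 3.31, lie above the female means, 0.18 to 0.46, with single rats overlapping at 0.5 mg/kg.

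In females at 2 mg/kg, 4 of the 11 probes were called, all higher, while 1.4% of all probes were called. They were Gstp1, Gstm1 and both probes of Gstm4. These calls rest on the slide block, since without it 0 of the 11 were called, and the values with and without it are given side by side. With the slide block the median difference of the 11 probes was 0.38, beside 0.01 over all probes, and without it each of the 11 differences was lower. Their median was then that of Gstm3, 0.13, beside -0.08 over all probes.

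Gstp1 had log2 ratios of -2.82, -2.62, -2.95, -2.61 and -2.94 in control females and -2.60, -1.31, -1.82, -1.70 and -1.92 at 2 mg/kg. The groups did not overlap, although female 82, at -2.60, lay next to the highest control. The log2 difference was 1.10 ± 0.31 (limma adjusted p = 0.0336) and without the slide block 0.92 (limma adjusted p = 0.0757). It was 1.24 and 1.31 within the 2 slides that held both groups. The direction held with each array left out, at 0.97 to 1.27, but the call was lost without control 2 or 9 or without female 83, 85, 90 or 92, with limma adjusted p values of 0.0526 to 0.102. Of the 12 other settings 5 kept the call.

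Both Gstm4 probes gave like values in females. For probe A_44_P728149 the log2 ratios were 0.56, 1.66, 1.12, 1.08 and 0.82 in controls and 1.08, 2.06, 1.22, 1.79 and 1.48 at 2 mg/kg, which overlap. After slide adjustment all 5 treated rats lay above all 5 controls, and the log2 difference was 0.75 ± 0.12 (limma adjusted p = 0.000562). For probe A_64_P014727 it was 0.76 ± 0.12 (limma adjusted p = 0.000253). Without the slide block the differences were 0.48 and 0.42 (limma adjusted p = 0.173 and 0.194). Within the 2 slides they were 0.98 and 0.41 for the first probe and 0.85 and 0.39 for the second.

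Gstm1 had log2 ratios of 3.49, 3.74, 2.56, 3.09 and 2.47 in control females and 2.94, 4.06, 3.09, 3.36 and 3.32 at 2 mg/kg, which overlap. The log2 difference was 0.75 ± 0.19 with the slide block (limma adjusted p = 0.0197) and 0.28 without it (limma adjusted p = 0.532), and it was 0.89 and 0.32 within the 2 slides. The call was lost without control 9 (0.64, limma adjusted p = 0.0508) or without female 83 (0.72, limma adjusted p = 0.0581). Slide moved Gstm1 by up to 1.21 on the log2 scale, which is wider than the difference.

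Gstt1, a theta class enzyme that acts on small halogenated alkanes, differed by 0.38 ± 0.09 in females at 2 mg/kg (limma adjusted p = 0.0127) at 1.30-fold, under the threshold, and by 0.00 without the slide block. The Gsta3 probes differed by 0.26 ± 0.31 (A_64_P035291) and 0.04 ± 0.11 (A_64_P004231). The treated females had log2 ratios of 3.75, 4.00, 3.92, 4.20 and 3.97 by the former probe, with 2 of the 5 above all controls. Gsta4, Gsta5 and Gstm2 differed by 0.06 ± 0.14, -0.03 ± 0.14 and 0.08 ± 0.15, and Gstm3, near background, by 0.89 ± 0.44. Without the slide block Gsta4, Gsta5, Gstm2 and Gstm3 differed by -0.18, -0.66, -0.52 and 0.13. The Gsta3 probes then differed by 0.24 (A_64_P035291) and -0.20 (A_64_P004231).

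**Figure D4:**
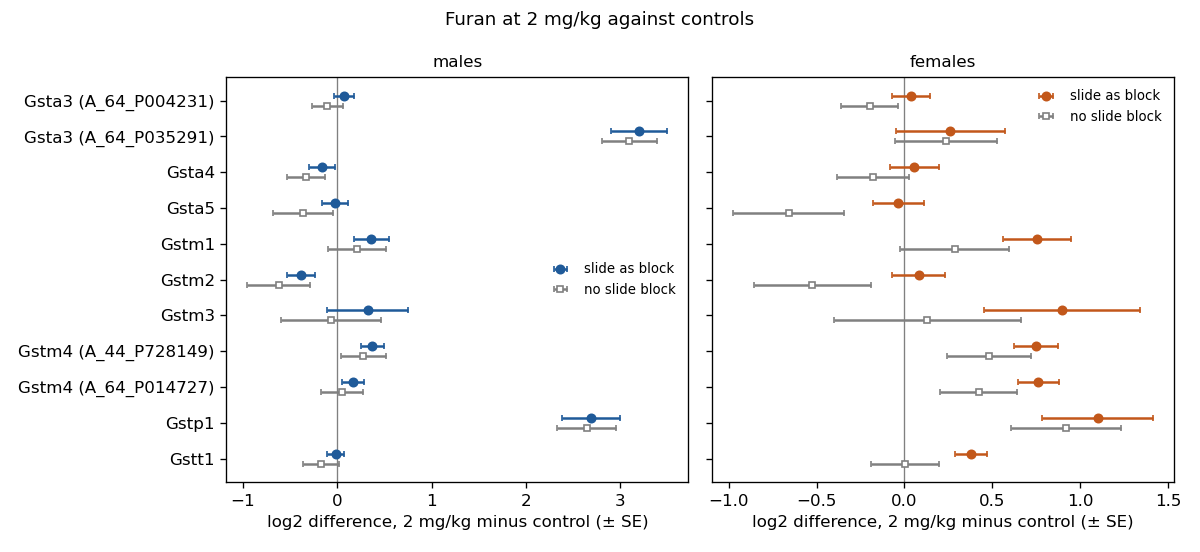
Log2 difference of rats at 2 mg/kg from the controls of their sex for each of the 11 probes, males left and females right, on separate axes. Filled points are the fit with slide as a block, open squares the fit without it, and bars are SE. Gsta3 (A_64_P035291) at 3.20 and Gstp1 at 2.69 stand apart in males with and without the block. All 11 values of each sex move to the right with the block.

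At lower doses in females 0 of the 11 probes were called. From the lowest of these doses up, 0.017%, 0.0113% and 0.0283% of all probes were called, while 2, 1 and 2 of the 11 had an unadjusted p under 0.05 in limma, beside 1142, 1493 and 2688 of all 17661 probes. At 0.5 mg/kg the Gstm4 probes differed by 0.47 ± 0.12 and 0.44 ± 0.12 (limma adjusted p = 0.0722 and 0.0751). With control 4 left out, 1 probe was called at that dose, Gstm4 A_44_P728149. Gstp1 differed by 0.07 ± 0.30, 0.08 ± 0.31 and 0.31 ± 0.31 from the lowest dose up.

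**Figure D5:**
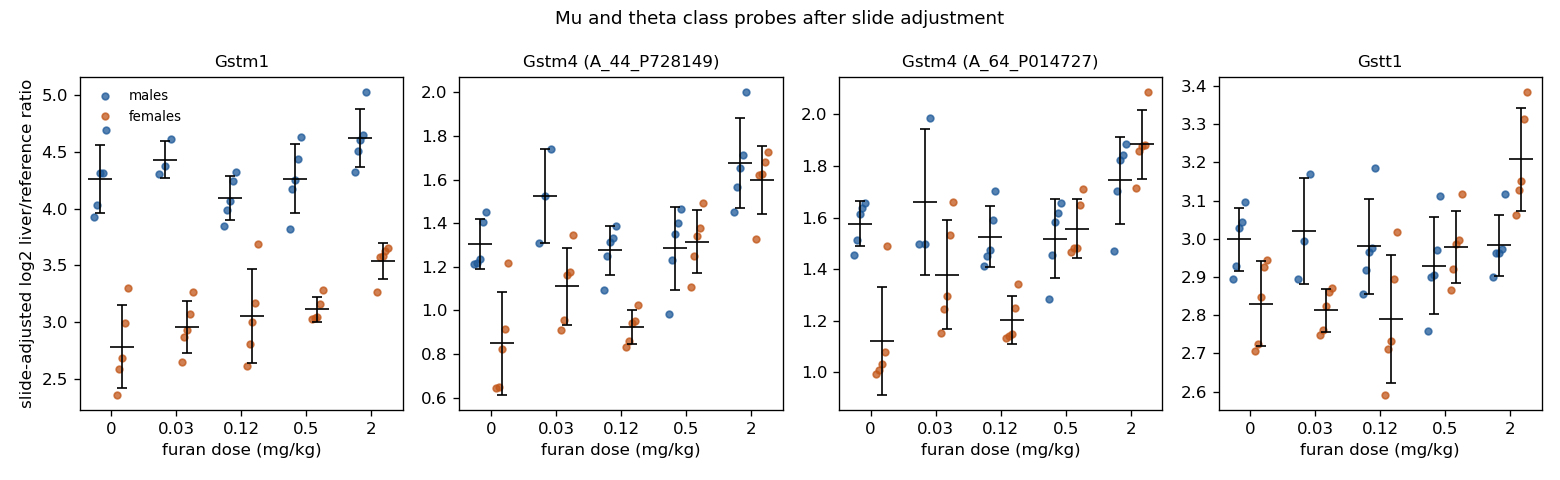
Slide-adjusted log2 liver/reference ratio of each rat for Gstm1, both Gstm4 probes and Gstt1 against furan dose in mg/kg, on separate axes. Points are rats, horizontal marks are group means and bars are SD. In females the adjusted means at 0 and 2 mg/kg are 2.79 and 3.54 for Gstm1 and 0.85 and 1.60 for Gstm4 (A_44_P728149), and the Gstm1 values of males lie above those of females at every dose.

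Whether furan at 2 mg/kg acted on these genes to a different extent in the sexes was tested as an interaction, for which 3 of the 11 probes were called, with 1.09% of all probes. The male change exceeded the female change by 2.94 ± 0.41 for Gsta3 probe A_64_P035291 (limma adjusted p = 0.000467), a call kept under all 12 other settings and with each of the 20 arrays left out. For Gstp1 the difference was 1.59 ± 0.42 (limma adjusted p = 0.0434), and for Gstm4 probe A_64_P014727 it was -0.59 ± 0.16 (limma adjusted p = 0.0452), the female change being the larger. Both calls depended on the setting, the Gstp1 call being kept in 6 and the Gstm4 call in 2 of the 12 other settings. Without the slide block the adjusted p values were 0.263 and 0.941, and with single arrays left out the Gstp1 call was lost in 16 of 20 cases, with a value of 1.04 without male 87, and the Gstm4 call in 15 of 20. At 2 mg/kg the group means of Gsta3 probe A_64_P035291 were 3.97 in females and 2.91 in males, against 3.73 and -0.18 in controls.

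Genes of the same pathway were counted by lists. Of the 17 probes of other glutathione transferases tested, 2 fell and 0 rose in males at 2 mg/kg, beside 5.07% of all probes called. These were Ltc4s, the leukotriene C4 synthase, at -0.9996 ± 0.22 (limma adjusted p = 0.00115), and the mu class gene Gstm7, at -0.76 ± 0.16 (limma adjusted p = 0.000752). In controls 4 of the 17 were called, beside 6.42% of all probes. Ltc4s (2.00) and Gsta2 (0.63) were higher and Gsta1 (-0.94) and Gsta6 (-0.59) lower in males. The Gsta2 and Gsta6 calls were lost without the slide block. In females at 2 mg/kg 0 of the 17 were called, beside 1.4% of all probes. The furan effect differed between the sexes for Ltc4s, by -1.42 ± 0.31, and for the microsomal enzyme Mgst1, by -0.76 ± 0.14. For this interaction 1.09% of all probes were called, and neither gene was called without the slide block.

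Of the 25 probes of NRF2 targets, which code for antioxidant and conjugating enzymes, 9 rose and 0 fell in males at 2 mg/kg. In females 2 rose. The shares of all probes called were 5.07% in males and 1.4% in females. The largest rises in males were those of Akr7a3, an aldo-keto reductase that reduces an aflatoxin dialdehyde, at 2.93 ± 0.35, of both probes of the glutathione peroxidase Gpx2, at 2.45 ± 0.33 and 1.21 ± 0.19, and of the aldo-keto reductase Akr1b8, at 1.80 ± 0.37, with limma adjusted p values of 3.88e-07, 2.06e-06, 1.96e-05 and 0.000414. The female rises were those of Akr7a3, at 1.65 ± 0.36 (limma adjusted p = 0.00658), and of the microsomal epoxide hydrolase Ephx1, at 0.78 ± 0.21 (limma adjusted p = 0.0241), the latter not called without the slide block. The list's median difference was 0.35 in males and 0.11 in females. In males at 0.12 mg/kg 1 of the 25 was called, Osgin1, at -1.15 ± 0.28, beside 0.306% of all probes. For the interaction at 2 mg/kg 2 were called, Gpx2 at 1.98 ± 0.45 and Ugdh at 0.77 ± 0.20, beside 1.09% of all probes. These 3 calls were lost without the slide block. In controls, where 6.42% of all probes were called, Akr1b8 and a Gpx2 probe were lower in males, by -3.56 ± 0.36 and -0.87 ± 0.32. Ephx1 was higher, by 0.76 ± 0.19, and the Gpx2 and Ephx1 calls were lost without the slide block. The Gpx2 probes are also 2 of the 15 for enzymes that use glutathione, where no other probe was called in either sex at 2 mg/kg. In controls Hagh was higher in males, by 0.67 ± 0.07, and Gpx1 was lower, by -0.61 ± 0.10.

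Of the 20 probes for glutathione synthesis and recycling, 1 was called in males at 2 mg/kg, beside 5.07% of all probes, and 0 in females, beside 1.4%. It was Chac2, which degrades glutathione, at -0.59 ± 0.14 (limma adjusted p = 0.00189). Gclc, the catalytic subunit of the first step of synthesis, differed by 0.52 ± 0.20 in males (limma adjusted p = 0.0488) at less than 1.5-fold. Of the 13 probes for mercapturate formation and export 0 were called in either sex at 2 mg/kg. In controls Ggct of the former list and Acy3 of the latter were higher in males, by 0.63 ± 0.13 and 0.74 ± 0.11, and the Ggct call was lost without the slide block. Of the 22 probes of regulators 3 were called in males, all of the growth hormone receptor Ghr, at -0.85 ± 0.15, -0.77 ± 0.16 and -0.74 ± 0.15, the probe at -0.77 not being called without the slide block. In males at 0.12 mg/kg Nfe2l2, which codes for NRF2, differed by -0.69 ± 0.16 (limma adjusted p = 0.0285), a call lost without the slide block. Cyp2e1 differed by -0.33 ± 0.10 in males and -0.21 ± 0.11 in females and was not called.

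The genes most like the top probes in pattern were sought by Pearson correlation of slide-adjusted log2 ratios over the 23 male arrays. They are a description, since the points share dose groups. For Gsta3 probe A_64_P035291 they were Wdr31 (r = 0.95), Nup210 (0.94), Akr1c13 (0.93), Dcakd (0.93) and Dnph1 (0.93). For Gstp1 they were the Gpx2 probes (both 0.96), Tmem120a (0.96), Dynlt1 (0.96) and Npdc1 (0.95).

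Other markers moved with these genes in males at 2 mg/kg, where 5.07% of all probes were called, and their part in the results was not tested. Of 8 bile duct probes 4 rose, Cftr, Epcam, Krt19 and Spp1, by 0.69 to 0.94. The Cftr probe was well above background on only 29.2% of the 48 arrays, against 83.3% to 100% for Epcam, Krt19 and Spp1. The summed liver signal of all 10 bile duct probes on the array was 10.5 to 11.5 on the log2 scale in control males and 10.9 to 12.5 at 2 mg/kg. Of 9 stellate cell and fibrosis probes 3 rose, of 8 erythroid probes 5 fell, of 6 hepatocyte probes 1 fell (Serpinc1, by 0.72) and of 7 macrophage probes 0 were called. In females at 2 mg/kg Epcam rose by 0.60, the only marker called, beside 1.4% of all probes. Of the 4 female-predominant liver genes 2 rose in males at 2 mg/kg, Cyp2c12 by 2.04 ± 0.30 and Akr1b7 by 1.02 ± 0.23. Of the 4 male-predominant genes Cyp3a2 fell in these males, by 1.28. In females at 2 mg/kg 0 genes of these lists were called. The summed signal of the female-predominant genes was 8.54 to 10.04 in control males, 9.45 to 12.2 in males at 2 mg/kg and 17.0 to 18.8 in control females.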

How the data were processed

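Liver RNA of 49 rats was measured on Agilent arrays with 2 colours. The deposited scanner files, made with Agilent Feature Extraction 10.7.3.1 per the submitters' processing notes, give each spot's median signal and local background as an intensity, a log10 ratio of liver to reference and quality marks. The deposited series matrix gives log2 ratios that the authors normalised. Signals were corrected by normexp (offset 50) and loess in limma 3.58.1 under R 4.3.3. Dyes were not swapped. Spots of a probe were averaged. A probe entered the tests if 4 or more arrays of any group marked its liver spot as well above background. RefSeq names covered 18004 of 30367 probes. The limma model had 1 mean per group, slide as a block and a shared spread over 48 arrays, and tests were 2-sided. Depth has no counterpart in arrays, whose number limits precision. Labels do not say whether replicates share litters.

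Most series matrix columns did not match the scanner file of their own animal. Of 49 columns, 7 correlated best with their own file, 41 with that of another animal of the same sex and dose and 1 with another group, so matrix values were compared by group and without slide. The fit was tested on simulated log2 ratios without slide effects, which cannot check the slide block.

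Every probe of the 9 genes is named. Up to 4 called probes of each pathway list are named per comparison, with the 5 named probes most correlated with the top male probe and with Gstp1. Genes and lists were chosen with earlier results of these data known. Alternatives were the slide block, the dim array, centring, background correction, the software ratio, the matrix, the liver channel alone, the filter, animal number as a block and each array left out. Probe positions and proteins were not analysed here.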

Additional observations from a re-analysis of the deposited data

Results flagged for a closer look

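In 3 of the 99 probe and group sets with 5 rats, 1 rat stood far from the other 4, about 1 in 20 being flagged by chance. These flags used log2 ratios without slide adjustment. Male 6, a control on slide 8, had a Gstm3 log2 ratio of 1.08, against 3.70 to 4.05 in the other control males. Control female 2 had a Gstm3 log2 ratio of 0.78, against 0.10 to 0.29 in the others, and was the only control female with a liver signal well above background. Male 86 at 2 mg/kg had a Gsta4 log2 ratio of 3.37, against 2.12 to 2.45 in the others of its group, and the lowest Gstp1 and Gsta3 (A_64_P035291) values there. The flagged rats lay on slides 8, 4 and 2, whose slide effects for these probes were -0.47, 0.88 and 0.42. After slide adjustment Gstm3 ran from 1.51 to 3.75 in control males and from -0.87 to 0.19 in control females. Gsta4 then ran from 2.27 to 2.95 in males at 2 mg/kg. Whether any rat would be flagged after slide adjustment was not tested.

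The furan effect at 2 mg/kg differed between the sexes, male minus female, by 2.94 on the log2 scale for Gsta3 (A_64_P035291), 1.59 for Gstp1 and -0.59 for Gstm4 (A_64_P014727), by the interaction in limma. The sex difference was called for the first of these in every setting tried.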

How the results depend on the processing

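Counts of called probes among the 11 were unchanged at 0 in the 6 lower-dose comparisons in every setting, except with single arrays left out in females at 0.5 mg/kg, where they ran from 0 to 1. In males at 2 mg/kg the count was 2 under each setting but the liver channel alone, where it was 3. In females at 2 mg/kg the count of 4 became 0 without the slide block, with or without the dim array, and with the series matrix values. It became 2 with the dim array and 2 under median centring, and 3 with the liver channel alone, without the filter on dim probes and without slides 5 and 6. The female Gstp1 call was kept in 5, the Gstm1 call in 7 and the Gstm4 calls in 9 (A_44_P728149) and 8 (A_64_P014727) of the 12 settings. Left-out arrays gave 2 to 4, the 2 being without control 9 and without female 83. The interaction count of 3 became 1 without the slide block, with or without the dim array, with the dim array, with the matrix values, without the filter on dim probes and without slides 5 and 6. It became 2 under median centring, with the scanner software ratio, with slide as a random block and with the liver channel alone, and left-out arrays gave 1 to 3. It was 1 without female control 2, 7, 9 or 11, male control 3, 4 or 5, male 83, 84 or 87 or female 83, 85 or 92. The count of 5 between control sexes became 4 without the slide block and 4 with the matrix values, 3 when the slide block was dropped and the dim array kept, and 6 under median centring, and left-out arrays gave 5 to 5. No called value changed sign. The causes were not tested.

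Animal numbers shared by a male and a female of one dose name different rats. With the number as a replicate block the correlation within pairs was 0.02, and the counts were 2 in males and 4 in females at 2 mg/kg, 3 for the interaction and 5 between control sexes, with no call changed. The matrix with slide as a block was not run, because its columns could not be tied to slides. The matrix, without slides 5 and 6, and the dim array without the slide block were added after seeing the data. Median centring moved the median of all probes from -0.002 to 0.15 for the interaction and from 0.02 to -0.15 between control sexes. It split the calls over all probes into 938 higher and 166 lower in males at 2 mg/kg (471 and 424 with loess), 34 and 100 in females (103 and 145), 111 and 14 for the interaction (83 and 109) and 280 and 1307 between control sexes (505 and 629). Over all settings the calls among all probes ran from 392 to 1464 in males at 2 mg/kg (895), 116 to 509 in females (248), 2 to 280 for the interaction (192) and 547 to 1587 between control sexes (1134).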
